A study of Solanum lycopersicum with 12 samples.

Results

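Tomato plants whose seeds had been coated with 1 of 2 amdS transformants of Trichoderma harzianum were compared with plants whose seeds carried T34, the wild-type strain that both transformants were made from. The comparison rests on 9 of the 12 Affymetrix Tomato Genome Arrays of the series: 3 arrays for amdS122, 3 for amdS6 and 3 for T34, chosen by the strain named in the sample labels. The other 3 arrays come from plants of uncoated seeds (control). They did not enter the comparison, and their values are given beside it as a description. All plants, controls included, were of the variety Marmande, grew from surface-sterilised seeds in autoclaved soil in a greenhouse, and were harvested at 3 weeks. RNA was taken from pooled plants, from the aerial parts by the methods and from leaves by the labels, so the spread between the 3 arrays of a group is a spread between pools. The transformants carry the acetamidase gene amdS of Aspergillus nidulans behind the strong constitutive gpdA promoter of that fungus and the cbh2 terminator. Each is a single line derived from 1 spore, and amdS122 holds more copies of the cassette than amdS6. No line transformed with a cassette lacking amdS was among the arrays, so amdS itself, the act of transformation and the place where the cassette landed cannot be told apart. The labels and the methods also give different spore concentrations for the coating.

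As background, acetamidase splits acetamide into acetate and ammonium, and amdS is used as a marker that lets fungi grow on acetamide. Trichoderma colonises roots, and the leaves of colonised plants are known for changes in growth and in readiness for defence. Recognition of a fungus by plant cells is usually followed by calcium signals, an oxidative burst, MAP kinase activity and transcription factors of the WRKY, NAC and ERF families, and then by chitinases, glucanases and other pathogenesis-related proteins. Nitrogen status acts on other genes: nitrate reductase makes nitrite from nitrate, and phosphoenolpyruvate (PEP) carboxylase supplies the carbon skeletons onto which ammonium is fixed.

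The signals are log2 values after RMA. The median signal of the 9 arrays lay between 7.80 and 7.87, the lowest correlation between 2 arrays of a group was 0.99761 and that between 2 arrays of different groups 0.9868. In a principal component analysis of the 9 arrays, all 6 transformant arrays lay apart from the 3 T34 arrays on the first component (61.8% of the variance), and amdS122 lay apart from amdS6 on the second (22.0%). In bulk tissue, fewer cells of a type and less RNA per cell cannot be told apart.

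Transcripts that differed at least 2-fold between plants with the transformants and plants with T34 were mainly lower with the transformants. Of 10038 tomato probe sets, 199 (1.98%) were called, which means an adjusted p under 0.1 in limma for the mean of both transformants minus T34 and a change of at least 2-fold. Of these, 28 were higher (0.279%) and 171 lower (1.7%) with the transformants. The median change was 2.53-fold among those called higher and 2.99-fold among those called lower. At least 4-fold changes were found for 4 of the probe sets called higher and 43 of those called lower, and 14 were at least 8-fold lower. Without the fold limit the balance was different: the adjusted p alone was passed by 2964 probe sets that were higher (29.5%) and 2007 that were lower (20%), together 49.5% of those tested, while over all probe sets the log2 fold change had a median of 0.03. The median standard error was 0.053 on the log2 scale, so that many shifts well under 2-fold passed the test. For 198 of the 199 called probe sets none of the 6 transformant arrays overlapped the 3 T34 arrays, a separation that 30.6% of all probe sets showed (17.7% with the transformants above T34 and 13% with them below). The choice of the 199 on these same arrays largely fixes their separation. Of the 199, 125 have a gene symbol or a description and 74 have neither.

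PEP carboxylase and probe sets annotated as its activating kinases were called higher. PPCK1 is a PEP carboxylase kinase by the platform annotation, whereas the study describes the same probe set as PEP carboxykinase, an enzyme of gluconeogenesis, and which of them it measures was not settled here. It had signals of 8.90, 8.79 and 8.85 with amdS122 and 7.94, 8.04 and 8.02 with amdS6, against 5.56, 5.43 and 5.22 with T34. It was the most raised probe set on the array, with a log2 fold change of 3.02 ± 0.067 (SE) for both transformants against T34 (8.11-fold, adjusted p = 4.25e-10). The second kinase gene, PPCK2, was less raised, at 7.40, 7.58 and 7.41 with amdS122 and 7.23, 7.19 and 7.23 with amdS6, against 6.14, 5.92 and 5.81 with T34 (2.61-fold). No array of the transformants came near those of T34 for either kinase. Both probe sets described as PEP carboxylase itself rose with them, and their identifiers place them in the same transcript cluster. One had 10.72, 10.88 and 10.84 with amdS122 and 9.91, 10.06 and 10.02 with amdS6, against 8.17, 8.16 and 8.13 with T34, and was 4.77-fold higher. The other was 5.35-fold higher (adjusted p = 1.06e-09). All 4 probe sets of the PEP carboxylase list, PPCK1 included, were thus called higher, against 0.279% of all probe sets. PPCK1 and both PEP carboxylase probe sets are on the study's list of probe sets raised on these same arrays. The count is therefore a description only. The enzymes that handle malate, made from the product of PEP carboxylase, moved less: of 4 probe sets, none was called, mdh and cMDH, which are malate dehydrogenases, rose by 0.14 and 0.24 on the log2 scale, and the malic enzyme gene ME2 fell by 0.90.

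Non-symbiotic haemoglobin-1, a small oxygen-binding protein of leaves and roots that takes part in nitric oxide turnover, followed the same order of groups. Its signals were 10.24, 10.25 and 10.28 with amdS122 and 9.45, 9.43 and 9.44 with amdS6, against 7.43, 7.34 and 7.37 with T34, a 5.55-fold rise (log2 fold change 2.47 ± 0.036, adjusted p = 3.23e-11). The other haemoglobin gene on the array, GLB2, rose by only 0.28. Nitrate reductase was 2.92-fold higher, with 12.04, 11.97 and 12.02 in plants with amdS122 and 11.67, 11.58 and 11.59 with amdS6, against 10.28, 10.33 and 10.18 with T34. The other probe sets of the list of nitrate and ammonium assimilation did not follow it: of 6 in all, 4 missed the test, and the glutamate dehydrogenase gene gdh1 fell by 0.23. The study also names nitrite reductase as raised by both transformants against uncoated plants, short of 2-fold with amdS6. No value for that enzyme is given here. LOC544276, whose synonym ICL stands for isocitrate lyase, the enzyme that opens the glyoxylate cycle by which acetate units become carbohydrate, was 2.42-fold higher. It had 11.56, 11.48 and 11.50 with amdS122 and 11.21, 11.37 and 11.32 with amdS6, against 10.12, 10.15 and 10.11 with T34.

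Further genes called higher act in the cell wall, in development and in pigment synthesis. Cel1, an endo-1,4-β-glucanase that loosens cell walls, was 2.73-fold higher, at 9.34, 9.25 and 9.39 with amdS122 and 8.99, 8.92 and 8.98 with amdS6, against 7.70, 7.73 and 7.65 with T34. It was the only called member among 21 probe sets of other wall enzymes. T6 (LeT6, also TKn2), a class I KNOX homeobox factor of shoot meristems and compound leaves, was 2.48-fold higher, and the remaining 6 meristem and vascular markers were not called. CHS1, a chalcone synthase at the entry to flavonoid synthesis, was 2.51-fold higher, but less so with amdS122 (8.39, 8.33 and 8.39) than with amdS6 (9.18, 9.10 and 9.11), against 7.33, 7.33 and 7.61 with T34. With amdS122 by itself CHS1 stayed under the fold limit, at 1.93-fold. The subtilase SBT1 stood at the fold limit (2.02-fold), and LOC778326, a gene without a role in the annotation used, was 2.91-fold higher. GA20OX1, which makes gibberellin precursors, rose 1.68-fold and was not called.

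**Figure D1:**
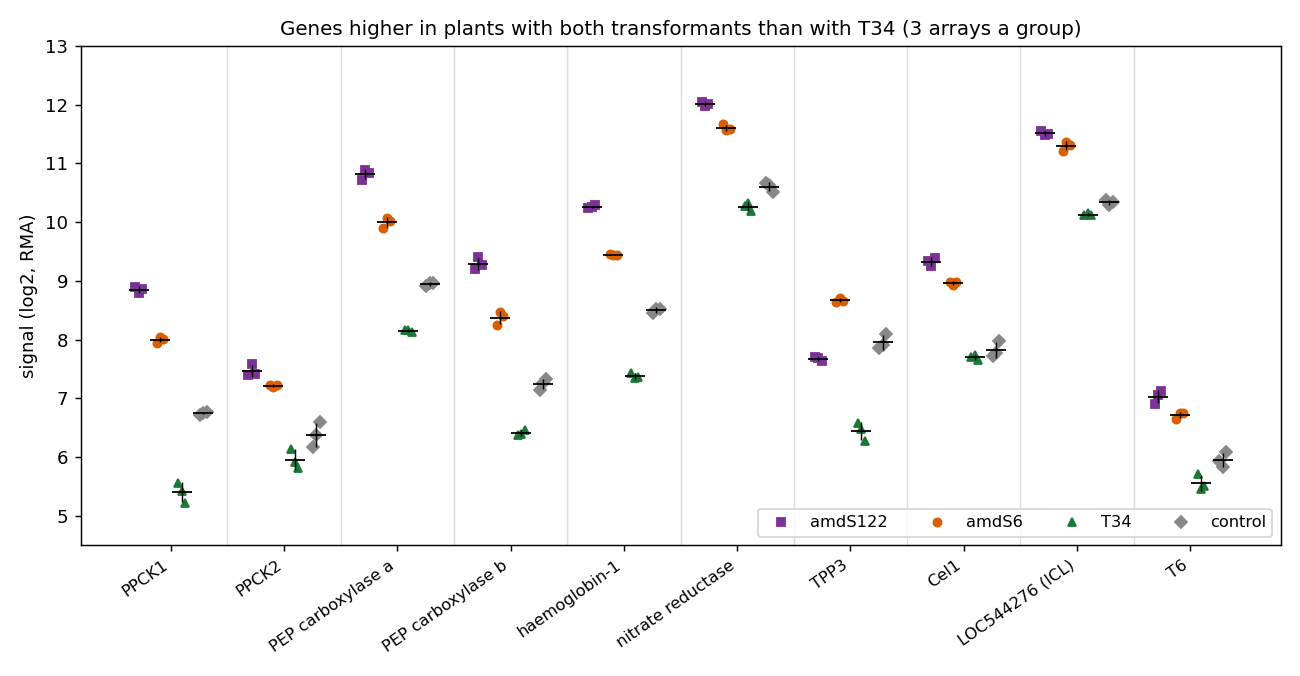
Signals (log2, RMA) of 10 probe sets called higher with both transformants than with T34, one symbol per array, with the mean and SD of each group of 3 arrays in black. All transformant arrays lie above the T34 arrays, amdS122 lies above amdS6 for each gene shown except TPP3, and the control arrays of TPP3 lie among those of the transformants.

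The study also measured some of these transcripts by real-time PCR. Its primer pairs for nitrate reductase (NR) and Cel1 (BGP), raised here, and for phospholipase D PLDb1 (PLDB1) and tyramine hydroxycinnamoyl transferase (HTTP), lowered here, are printed 5′ to 3′ to identify the targets as the study names them; their places in the transcripts were not mapped, and its pairs for PEP carboxykinase and a glycosyltransferase are not shown.
NR-fw: gtacgagctatcgatgagaccc
NR-rev: attggtttccaggttgggtc
BGP-fw: gagaggagattccgcactcatc
BGP-rev: agcagcccaactcaacaaggtt
PLDB1-fw: tcctgatattttgggaatagc
PLDB1-rev: cagcacattcttaccacacacta
HTTP-fw: atggctcctgctcttgaacaa
HTTP-rev: atcagatttcgtagcgagacg

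For a few called transcripts the uncoated plants lay nearer to the transformants than to T34. TPP3, a defensin-like protein first known from the pistil, was called higher with the transformants (3.30-fold, log2 fold change 1.72 ± 0.060). Its signals were 7.70, 7.69 and 7.63 with amdS122 and 8.63, 8.70 and 8.66 with amdS6, against 6.58, 6.47 and 6.28 with T34, and the control plants had 7.85, 7.90 and 8.10. Both transformants stood apart from control as well, in opposite directions: on the log2 scale amdS122 differed from the control mean by -0.28, amdS6 by 0.71 and T34 by -1.51. TD2, a threonine deaminase that starves chewing insects of an amino acid, was 2.47-fold lower with the transformants, at 10.00, 9.96 and 9.63 with amdS122 and 9.70, 9.73 and 9.69 with amdS6, against 11.16, 11.20 and 10.91 with T34, and the controls had 9.78, 9.74 and 9.74. Against control, TD2 differed by 0.11 with amdS122, by -0.05 with amdS6 and by 1.33 with T34. The mean of both transformants was within 0.5 of control for 4 of the 199 called probe sets, which were these genes, 1 unnamed probe set and FRO1, a ferric chelate reductase of iron uptake, for which all 6 transformant arrays still lay below the control arrays (-0.33). Between T34 and control 9 probe sets were called (0.0897%). Of the 199, 176 had T34 within 0.5 of control, while 83 passed the adjusted p for T34 minus control in limma. The shares of all probe sets that did so are not given here, so these counts are a description only. The 6 transformant arrays did not overlap the control arrays for 27 of the 28 called higher, all above control, and for 167 of the 171 called lower, all below. Of all probe sets 19.7% had the transformant arrays above the control arrays and 14% had them below. The 6 transformant arrays in these counts also served to choose the 199, which favours their separation from control. The T34 arrays are likewise shared by the difference from T34 and that of T34 from control. The values are therefore given side by side only. PPCK1 and haemoglobin-1 belong to neither pattern, with control signals of 6.72 to 6.76 and of 8.45 to 8.53 that lay between those of the transformants and those of T34. Among the 28 called higher, 26 had a T34 mean below the control mean. Among the 171 called lower, 114 had it above. Choosing probe sets by their difference from T34 favours such T34 means, and the share over all probe sets is not given here.

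Among the transcripts that fell, the deepest were homologs of calcium-binding and elicitor-induced proteins. A probe set described as a calcium-binding protein had signals of 4.68, 4.94 and 4.90 with amdS122 and 5.08, 5.04 and 5.15 with amdS6, against 9.11, 9.12 and 9.07 with T34, which is 17.6-fold lower (log2 fold change -4.14 ± 0.059, adjusted p = 3.23e-11). All 5 called probe sets with this description were lower, by 3.95-fold to 17.6-fold. Such descriptions exist only for probe sets on the study's lists of changes on these same arrays. All 5 are on its list of lowered ones, so their shared direction is a description only. NtEIG-E80, the homolog of a tobacco transcript induced by elicitors, was 12.2-fold lower, at 6.33, 6.32 and 6.46 with amdS122 and 6.52, 6.48 and 6.47 with amdS6, against 10.05, 9.97 and 10.08 with T34. The homolog of HSR203J, a tobacco gene that marks the hypersensitive response, was 11.7-fold lower, with 8.04, 7.80 and 7.81 with amdS122 and 8.47, 8.45 and 8.49 with amdS6, against 11.68, 11.76 and 11.74 with T34. For these 3 transcripts the transformant arrays were several log2 units below every T34 array. A miraculin-like protein, named after a taste-modifying relative of protease inhibitors, was 8.30-fold lower.

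Receptors linked to fungal recognition were among the called genes. Eix1, a receptor-like protein that binds fungal xylanase, had 5.08, 5.14 and 5.24 with amdS122 and 5.54, 5.22 and 5.59 with amdS6, against 8.40, 8.44 and 8.57 with T34 (8.96-fold lower, log2 fold change -3.16 ± 0.081). Ve1, a receptor-like protein of resistance to Verticillium, had 5.02, 5.04 and 4.94 with amdS122 and 4.81, 4.87 and 4.89 with amdS6, against 7.45, 7.67 and 7.58 with T34, and was 6.22-fold lower. Its neighbour in the family, Ve2, was 1.96-fold lower and just missed the fold limit. pip1, a cysteine protease of the leaf apoplast that pathogens target with inhibitors, was 4.49-fold lower. Of 4 probe sets in the list of immune receptors and protease, 3 were called lower, against 1.7% of all probe sets. Ve2 passed the adjusted p alone. The list median was -2.40 on the log2 scale, against 0.03 over all probe sets. Eix1, Ve1 and pip1 are on the study's list of probe sets lowered on these same arrays, so these values are a description only. The 4 called probe sets that the study describes only as receptors, from that same list, were 2.78-fold to 8.18-fold lower.

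**Figure D2:**
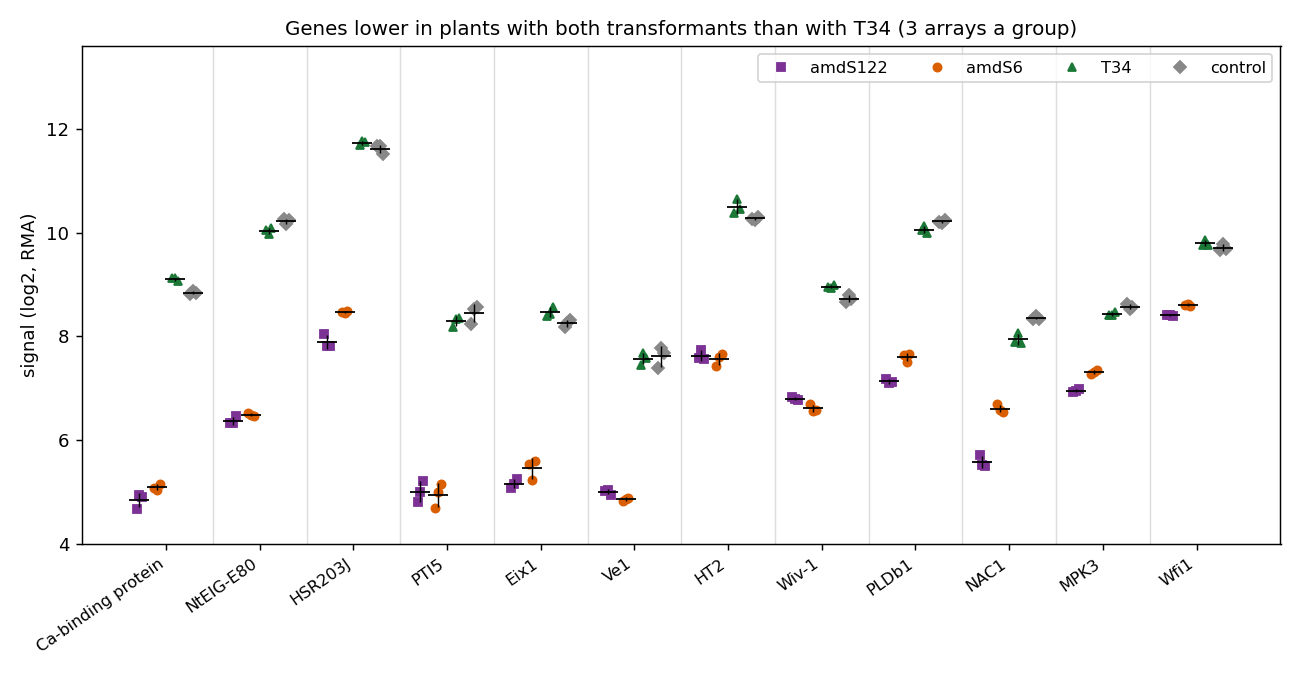
Signals (log2, RMA) of 12 probe sets called lower with both transformants than with T34, one symbol per array, with the mean and SD of each group of 3 arrays in black. For each gene every transformant array lies below every T34 and every control array.

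Among early signalling genes, MPK3 and Wfi1 were called lower. MPK3, a MAP kinase activated within minutes of pathogen contact, had 6.93, 6.94 and 6.97 with amdS122 and 7.28, 7.30 and 7.35 with amdS6, against 8.40, 8.40 and 8.47 with T34 in the probe set with the smallest error (2.46-fold lower). A second MPK3 probe set was 2.31-fold lower, and another, at 4.58 with amdS122, 4.69 with amdS6 and 4.99 with T34 as group means, fell by 0.35 and was not called. Wfi1, an NADPH oxidase of the oxidative burst that was first found as induced by whitefly, was 2.45-fold lower, at 8.40, 8.41 and 8.40 with amdS122 and 8.61, 8.63 and 8.58 with amdS6, against 9.77, 9.86 and 9.75 with T34. In the list of kinases and oxidases of early signalling 3 of 15 probe sets were called lower and none higher, while 9 were lower and 4 higher at the adjusted p alone. Over all probe sets 1.7% were called lower, and 20% were lower and 29.5% higher at the adjusted p alone. MEK1, a MAP kinase kinase, was 1.61-fold lower.

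Transcription factors of defence were among the called genes. PTI5, an ethylene response factor known to interact with the resistance kinase Pto, had 4.80, 4.99 and 5.21 with amdS122 and 4.68, 4.99 and 5.14 with amdS6, against 8.19, 8.33 and 8.36 with T34. It was 10.0-fold lower with the transformants, and the difference between them missed the test. ER24, a transcriptional coactivator of the MBF1 family, was 3.62-fold lower, at 7.02, 7.06 and 7.02 with amdS122 and 6.59, 6.62 and 6.79 with amdS6, against 8.75, 8.72 and 8.65 with T34. These were the only called members among 29 probe sets for ethylene perception and signalling. At the adjusted p alone 12 of the 29 were lower and 9 higher, against 20% and 29.5% of all probe sets. ERF4 was 1.56-fold higher. In ethylene synthesis, ACS1A, an ACC synthase, stood at the limit (2.02-fold lower), and ACO4, an ACC oxidase, was 1.68-fold lower, while 10 of the 16 probe sets did not pass. A probe set described as a homolog of ACC oxidase was lowered more, by 5.58-fold. NAC1, a stress factor of the NAC family, was 3.61-fold lower. Among 7 WRKY probe sets, LOC543855 (WRKYIId-2) and WRKYIId-4 were called lower (3.28-fold and 2.21-fold), WRKYIId-1 was 1.78-fold lower, and none was higher at the adjusted p. The study's description lists 10 more called probe sets as transcription factors without a family, 2.26-fold to 5.89-fold lower. All 10 come from its list of lowered probe sets, which fixes their direction.

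Pathogenesis-related proteins fell in part. The thaumatin-like proteins PR-5 and LOC543878 (PR5) were 3.87-fold and 2.93-fold lower. GluB, a basic β-1,3-glucanase that cuts fungal walls, was 3.09-fold lower on average, but with 10.08, 9.97 and 10.05 with amdS122 and 8.28, 8.32 and 8.40 with amdS6, against 10.83, 10.75 and 10.86 with T34, the fall was 1.72-fold with amdS122 and 5.57-fold with amdS6. The chitinase CHI9 (2.09-fold) and the subtilase P69B (2.10-fold) followed GluB, being 1.56-fold and 1.61-fold lower with amdS122 and 2.80-fold and 2.74-fold lower with amdS6. Of 19 probe sets in the list, 5 were called lower, against 1.7% of all probe sets, and none higher. At the adjusted p alone 9 were lower and 4 higher, against 20% and 29.5% of all. The list median was -0.06. CHI3, another chitinase, rose 1.53-fold, and the median of the list was -0.37 with amdS6 and 0.07 with amdS122. The study also describes a pair of called probe sets as acidic endochitinases, which were 5.14-fold and 5.08-fold lower. They, too, come from its list of lowered probe sets.

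Jasmonate and wound genes showed no common direction. AOS, allene oxide synthase at the entry to jasmonate synthesis, was called lower (2.48-fold), with 5.06, 5.26 and 4.76 with amdS122 and 6.20, 6.36 and 6.19 with amdS6, against 6.94, 6.98 and 6.92 with T34. The next enzyme of the path, AOC, rose 1.44-fold. This list holds 12 probe sets, of which AOS was called, while 5 passed the adjusted p upwards, 4 downwards and 3 not at all. Of all probe sets 29.5% passed it upwards and 20% downwards. In the list of wound-induced proteins TD2 was the only 1 of 11 that was called. The leucine aminopeptidase LAPA1 passed the adjusted p with a fall of 0.48, at 8.11, 8.12 and 7.88 with amdS122 and 8.97, 9.13 and 9.09 with amdS6, against 8.97, 8.95 and 9.17 with T34, so that amdS6 overlapped T34.

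Several probe sets described as detoxification enzymes, all from the study's list of lowered probe sets, fell, while the lists chosen by gene symbol were mixed. A glutathione S-transferase had 8.27, 8.36 and 8.31 with amdS122 and 8.45, 8.46 and 8.47 with amdS6, against 11.56, 11.72 and 11.61 with T34, a 9.50-fold fall. Called with it were 2 further probe sets of this description as well as ctu1 (2.94-fold) and GST-T4 (2.23-fold), enzymes that couple glutathione to foreign or reactive compounds. A cytochrome P450 monooxygenase was 10.7-fold lower, with 6.35, 6.61 and 6.79 with amdS122 and 6.41, 6.42 and 6.49 with amdS6, against 9.93, 9.95 and 9.90 with T34, and a second was 8.35-fold lower. Tyramine hydroxycinnamoyl transferases make amides that stiffen cell walls at wounds: THT1-3 was 3.08-fold lower, and a probe set with this description was 3.60-fold lower. In the list of glutathione S-transferases and cytochrome P450s by symbol, 2 of 6 probe sets were called lower and none higher, the adjusted p was passed by 3 in each direction, and the median was 0.09. Over all probe sets 1.7% were called lower, and the adjusted p was passed upwards by 29.5% and downwards by 20%. In the list of flavonoid and phenolic synthesis, with 8 probe sets, THT1-3 was called lower and CHS1 higher, and the adjusted p was passed upwards by 3 and downwards by 4. Prephenate dehydrogenase, of tyrosine synthesis, was 8.30-fold lower, at 3.82, 4.02 and 3.98 with amdS122 and 3.67, 3.82 and 3.85 with amdS6, against 6.90, 6.92 and 6.92 with T34. Its signals with the transformants were near the lowest on these arrays (3.31), where the size of a fall may not be seen in full. A second probe set of this description was 2.43-fold lower.

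Genes of sugar and lipid handling were also among those called lower. HT2, a hexose transporter, had 7.58, 7.74 and 7.56 with amdS122 and 7.43, 7.61 and 7.66 with amdS6, against 10.37, 10.66 and 10.46 with T34, and was 7.46-fold lower (log2 fold change -2.90 ± 0.075, adjusted p = 1.33e-09). Wiv-1 (LIN6), an invertase of the cell wall that splits sucrose into hexoses, was 4.78-fold lower, at 6.82, 6.79 and 6.78 with amdS122 and 6.68, 6.56 and 6.58 with amdS6, against 8.94, 8.93 and 8.99 with T34. These were the only called members among 23 probe sets for sugar handling, whose median was 0.07. PLDb1, a phospholipase D, had 7.17, 7.10 and 7.11 with amdS122 and 7.64, 7.51 and 7.66 with amdS6, against 10.05, 10.13 and 9.99 with T34, a 6.45-fold fall. An acyl-CoA synthetase was 9.00-fold lower, and a pair of probe sets for 3-ketoacyl-CoA thiolase, of fatty acid breakdown, were 3.22-fold and 3.18-fold lower. Phosphoglycerate mutase, of glycolysis, was 7.67-fold lower. Of 25 probe sets for xyloglucan endotransglucosylases and expansins, which remodel growing walls, tXET-B2 (3.89-fold) and XTH3 (3.17-fold) were called lower. The adjusted p alone was passed upwards by 11 of the 25 and downwards by 4, against 29.5% and 20% of all probe sets. A transporter described as carrying metal ions was 10.3-fold lower. Of 8 heat shock probe sets, HSP17.4 (3.60-fold) and HSP17-6 (2.01-fold) were called lower, 6 were lower and none higher at the adjusted p.

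The study's own list of probe sets changed by both transformants was chosen on these arrays, although against uncoated plants, and is not independent evidence of direction. All 105 of its members were called against T34 as well, 99 lower and 6 higher, and 94 called probe sets are not on it. By the process the study assigned, the median change was deepest for the 5 calcium-binding proteins (7.17-fold lower), followed by the 6 probe sets of detoxification (5.56-fold), and was smallest for the 4 of amino acid metabolism (2.59-fold) and the single member of energy metabolism, an alcohol dehydrogenase (2.59-fold). Signalling (14 probe sets, median 3.40-fold lower), transcription and translation (15, 3.69-fold), defence (10, 4.54-fold), transport (6, 4.19-fold) and carbohydrate metabolism (9, 4.78-fold) lay between. These medians cover only the members that the study lists as lowered, and 4 further members of carbohydrate metabolism, PPCK1, Cel1 and both PEP carboxylase probe sets, were called higher. A 60S ribosomal protein homolog of that list was 6.24-fold lower, whereas none of 6 probe sets for named cytosolic ribosomal proteins was called. Of the 9 probe sets that the study lists for T34, 5 were called here: PPCK1, haemoglobin-1 and TPP3 higher, TD2 and 1 unnamed probe set lower.

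**Figure D3:**
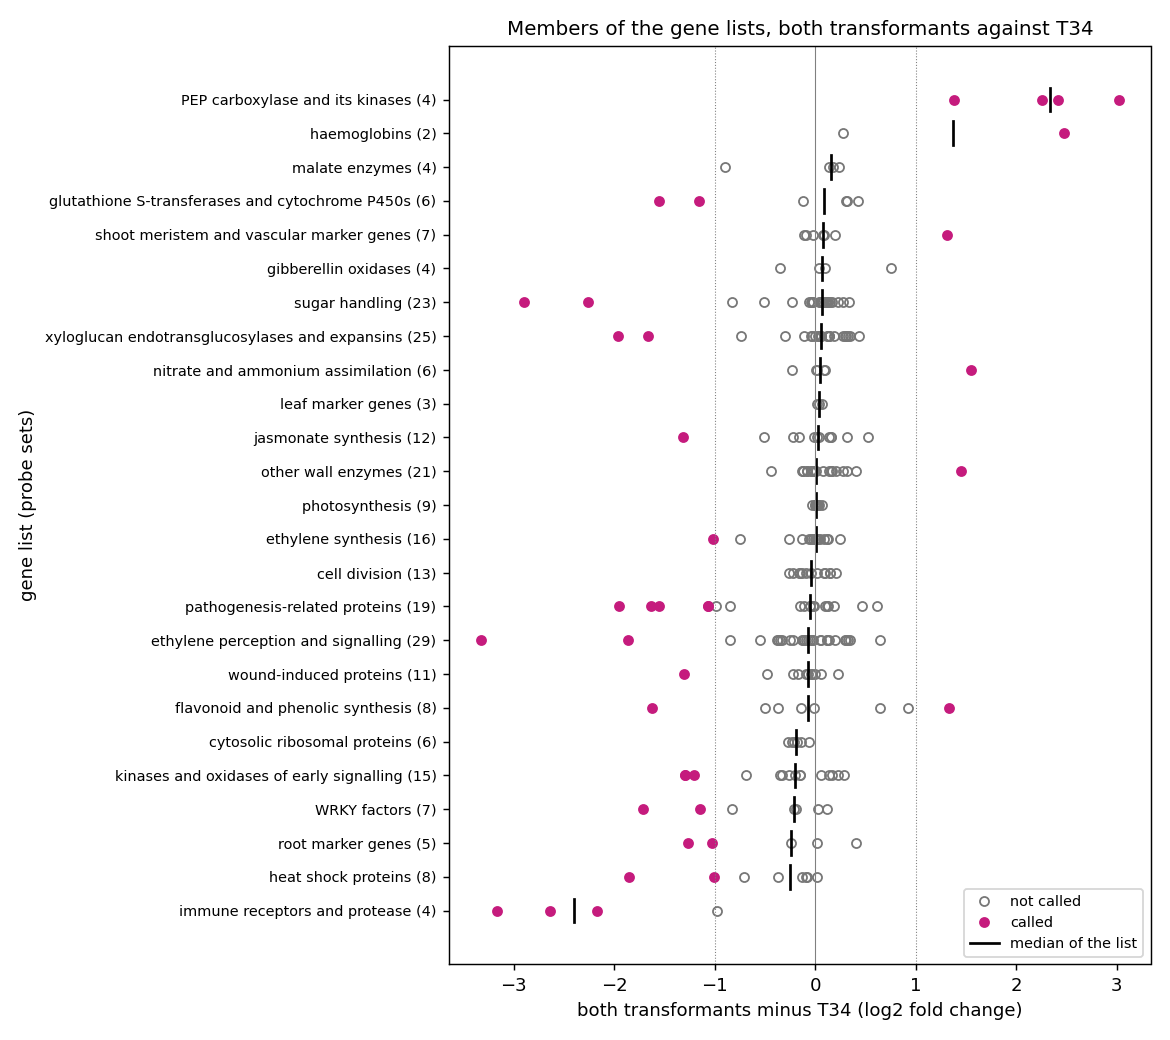
Log2 fold change of both transformants minus T34 for every probe set of 25 gene lists, 1 row per list with its number of probe sets. Filled points were called, open points were not, the black bar is the median of the list, and the dotted lines mark 2-fold. Most lists centre near 0, with few called members far from the median.

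None of 9 photosynthesis probe sets passed the adjusted p, but their mean signal per array was 14.07 to 14.13, near the highest signal on these arrays (14.72), where a change may not be seen. The chlorophyll a/b-binding proteins CAB4, CAB5 and CAB6A mark leaf tissue. Averaged over these 3 leaf markers, the arrays lay between 14.16 and 14.20 with the transformants, against 14.14 and 14.16 with T34. Of 6 ribosomal protein probe sets 5 passed the adjusted p with small falls, down to -0.27, where 20% of all probe sets passed it downwards and 29.5% upwards. Of 5 root markers, the phosphate transporter PT1 (2.40-fold) and FRO1 (2.04-fold) were called lower, and RSI-1 rose by 0.40. The mean over the root markers lay between 7.51 and 7.75 with the transformants, against 8.03 on each T34 array and 7.69 to 7.87 in control plants. The mean of these root markers was lower with the transformants than with T34, as were the called defence genes. RSI-1 went the other way, and control lay below T34 too. The part of such markers in the fall of the defence genes was not tested. No cell division probe set out of 13 was called, 4 passed the adjusted p in each direction, and the list median was -0.31 with amdS122 and 0.21 with amdS6.

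A measure of the integrity of the labelled RNA also differed between transformants and T34. For actin, ef1a and gapdh the array carries probe sets at either end of the transcript, and a smaller gap between the 3′ and 5′ signals means that more full-length copies were labelled. The mean gap over these transcripts was 3.01, 2.77 and 2.78 on the log2 scale with amdS122 and 2.99, 3.07 and 3.12 with amdS6, against 3.21, 3.28 and 3.20 with T34. All transformant arrays lay below the T34 arrays, while amdS122 and amdS6 overlapped, and the difference of both transformants minus T34 was -0.27 (exact permutation test over 84 splits, two-sided p = 0.0357, smallest possible p 0.0119). The gap moves with the strain in every result above. With it as a covariate, 193 probe sets were called, 177 of them among the 199, and ME2, ACS1A, HSP17-6, SBT1 and WRKYIId-4 crossed the fold limit.

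Each transformant was also compared with T34 by itself. Since the 199 were chosen by the mean of both and the T34 arrays are shared, the choice largely fixes the sign of both differences. By itself, amdS122 minus T34 gave 245 called probe sets (2.44%), 52 higher (0.518%) and 193 lower (1.92%), and amdS6 minus T34 gave 190 (1.89%), 31 higher (0.309%) and 159 lower (1.58%), with the same T34 arrays in both. Scaling on the hybridisation spikes gave 84 called higher for amdS6 minus T34. The adjusted p alone was passed by 49% of probe sets with amdS122 and by 46% with amdS6. Of the 199, 160 were called with each transformant by itself (17 higher and 143 lower), 29 with amdS122 only and 10 with amdS6 only. Among those called with amdS122 only were AOS, ST2, WRKYIId-4, LEA14, the ornithine decarboxylase ODC, FRO1 and ACS1A. Called with amdS6 only were GluB, P69B, CHI9, CHS1 and SBT1 and 5 others. The mean of amdS122 lay above that of amdS6 for 25 of the 28 called higher and below it for 112 of the 171 called lower, against 53.8% above and 46.2% below over all probe sets. Scaled on the hybridisation spikes, these counts were 17 of 28 and 161 of 171, against 4.71% above and 95.3% below, so the order of the lines rests on the scaling. For PPCK1 the rise was 10.9-fold with amdS122 and 6.04-fold with amdS6, and the difference between them was 0.85 on the log2 scale (adjusted p = 3.5e-05), short of the fold limit.

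**Figure D4:**
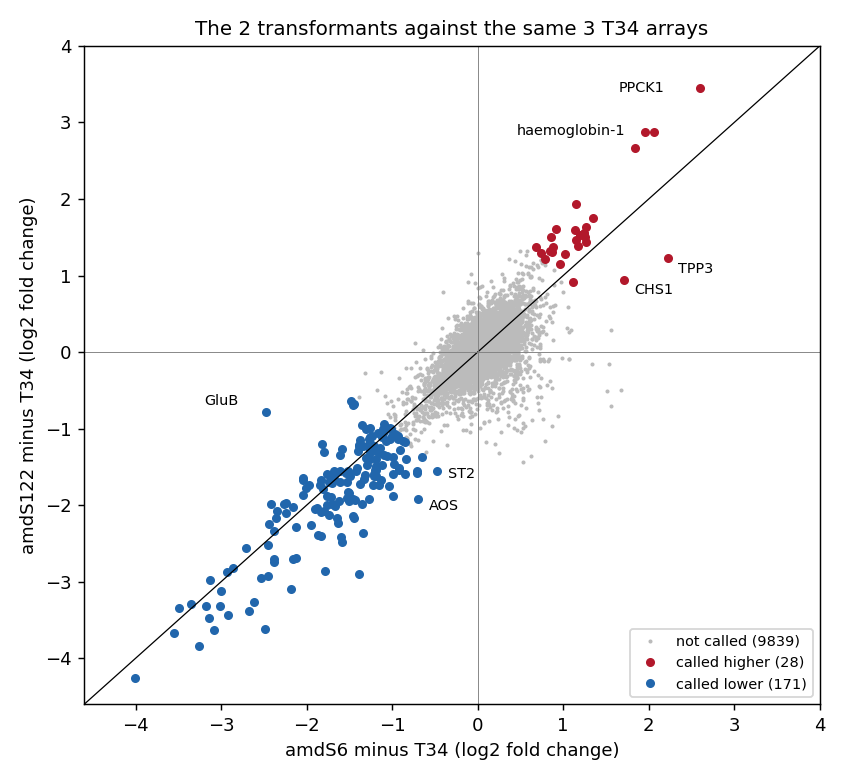
Log2 fold change against the same 3 T34 arrays, for amdS6 on the x axis and amdS122 on the y axis, 1 point per probe set, with the line of equal change. The 28 probe sets called higher and the 171 called lower lie on the same side of 0 for both transformants, which their choice by the mean largely fixes. GluB lies above the line, and AOS, ST2, TPP3 and CHS1 lie below it.

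The direct difference of amdS122 minus amdS6, in which the T34 arrays enter only through the pooled spread, called 72 probe sets (0.717%), 6 higher (0.0598%) and 66 lower (0.658%) with amdS122, and 7 of them were among the 199. When hybridisation spikes set the scale, the count for amdS122 minus amdS6, called higher, was 1, and that for amdS122 minus amdS6, called lower, was 192. At the adjusted p alone 38.1% of probe sets differed between the transformants. GluB was 3.25-fold higher with amdS122. Lower with amdS122 were LOC543701, described as an auxin response protein (2.85-fold), AOS (2.33-fold), the miraculin-like protein (2.20-fold), a transcription factor (2.12-fold), ST2 (2.11-fold) and NAC1 (2.05-fold). Among flavonoid genes that were not called, the lines differed as much: DFR, dihydroflavonol reductase of pigment synthesis, was 2.44-fold higher than T34 with amdS122 and level with T34 with amdS6, while CHS2 was 1.23-fold higher with amdS122 and 2.95-fold higher with amdS6.

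**Figure D5:**
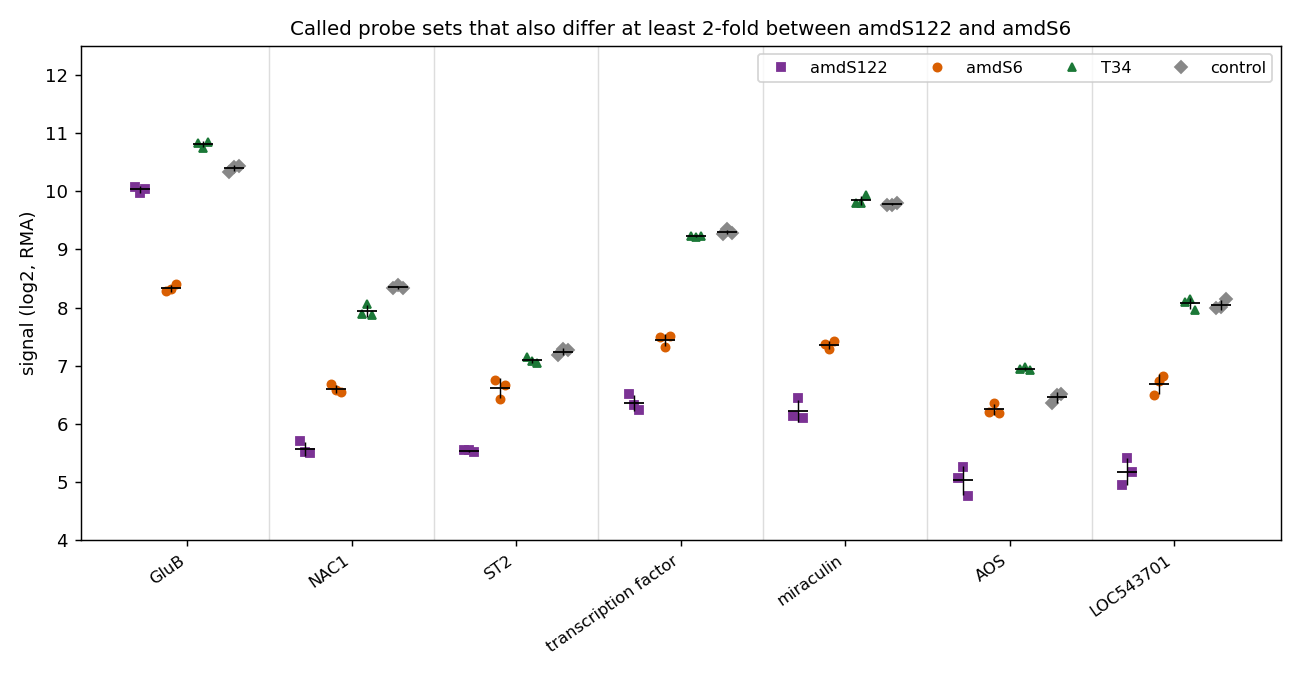
Signals (log2, RMA) of the 7 called probe sets that also differed at least 2-fold between amdS122 and amdS6, one symbol per array, with the mean and SD of each group of 3 arrays in black. GluB is higher with amdS122 than with amdS6, the other 6 are lower, and T34 lies above both for all 7.

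Of the 74 probe sets without a name, 15 were called higher and 59 lower, beside 13 higher and 112 lower among the 125 named. Of the 125, 54 have a gene symbol, and the others were named from the study's lists of probe sets changed on these same arrays. Most members of those lists were lowered, so the way names were given bears on this split, which is a description only. The deepest falls among them were 6.68-fold (9.12 with amdS122 and 9.53 with amdS6, against 12.07 with T34, as group means) and 5.83-fold, and the largest rises were 2.64-fold and 2.63-fold. An unnamed probe set with a wide spread (SD 1.08 with amdS122 and 0.76 with T34) was the 1 called probe set whose groups overlapped. Close to the fold limit, HSP17-6 was called at 2.01-fold lower, while NP24-I, an osmotin-like protein, was not at 1.98-fold lower, so that the count of 199 rests on where the limit was drawn.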

How the data were processed

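Each of the 12 arrays was hybridised with RNA from 1 pool of plants. The authors deposited RMA signals on the log2 scale, computed in Affymetrix Expression Console (background correction, quantile normalization and 1 value per probe set; versions are not given in the sources used here). Of 10209 features, 108 array controls and 63 reporter probe sets were left out, and 10038 tomato probe sets were tested. A single gene symbol was available for 909 of them in the platform annotation, and 885 matched a RefSeq gene ID. Other names are the study's descriptions, which cover only probe sets on its lists of changes on these arrays.

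limma 3.58.1 (lmFit and eBayes, R 4.3.3) gave a mean for each of amdS122, amdS6 and T34, and adjusted p-values are Benjamini-Hochberg values over all 10038. The limits of adjusted p under 0.1 and 2-fold are those of the study, whose multi-class SAM gives no test of a single contrast. The fit was checked on simulated data. Because the number of arrays is small and each is a pool, p-values measure the spread between pools. Probe sets have no read depth, and the 3 arrays per group limit precision.

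Genes were named by rule: the 15 largest named changes in each direction, the study's lists and real-time PCR genes, the 2 deepest falls per process, 3 members per gene list, the 2 largest unnamed changes and those nearest the fold limit. Genes named beyond the rule were chosen after their values were seen. The members and lists were chosen with earlier results of these data known. Primer sequences are those of the study's supplementary table. Alternatives covered scaling, filter, variance model, array weights, covariate, thresholds, replicate block and each array left out.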

Additional observations from a re-analysis of the deposited data

Results flagged for a closer look

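Among the 199 called probe sets, 7 differed at least 2-fold between the transformants by the direct test of amdS122 minus amdS6 in limma. The β-1,3-glucanase gene GluB differed by 1.7 on the log2 scale (adjusted p = 3.99e-08), and it was the only 1 of the 7 that was higher with amdS122. LOC543701 differed by -1.51 (adjusted p = 1.19e-05), the allene oxide synthase gene AOS by -1.22 (adjusted p = 2.83e-05) and the miraculin-like protein by -1.13 (adjusted p = 1.27e-05). A transcription factor differed by -1.09, ST2 by -1.08 and NAC1 by -1.03, with adjusted p-values of 5.80e-06, 7.25e-06 and 7.29e-06. In each of the 7, the 3 arrays of amdS122 and the 3 of amdS6 did not overlap. Their choice by this difference largely fixes that separation. The cassette copy number, the place of integration and other differences between the 2 lines cannot be told apart. Groups of 3 arrays are too small for a test of single outlying arrays.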

How the results depend on the processing

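When hybridisation spikes set the scale, the median log2 fold change over all probe sets became 0.13, against 0.03 as reported, 179 of the 199 calls were shared, and 21.4% of calls were higher, against 14.1%. It gave 84 probe sets called higher for amdS6 minus T34, and for amdS122 minus amdS6, called higher, 1 and, for amdS122 minus amdS6, called lower, 192. Without a fold limit 2964 were higher and 2007 lower. Requiring a call with each transformant by itself left 17 higher. Leaving out 1 array at a time gave 25 to 28 higher and 167 to 176 lower for both transformants minus T34. The 3′ minus 5′ difference then lay between -0.31 and -0.23 (exact permutation p 0.0179 to 0.0714), and the difference of array medians between -0.0042 and 0.0094. A covariate for the gap between transcript ends left 193 calls, 177 of them among the 199, and ARG2, not called, had a log2 fold change of 0.018, against -0.22; the cause was not tested. Of named genes near the fold limit, ACS1A lost its call under 7 alternatives, HSP17-6 under 5, SBT1 under 3 and FRO1 under 2. These counts leave out the requirement of a call with each transformant by itself, which also removed ACS1A, SBT1 and FRO1. With the replicate number as a block, 199 were called, all 199 shared. Same-numbered arrays correlated at -0.047 to 0.43, and 4 of 9 pairs passed 0.1. Arrays with different numbers correlated at -0.47 to 0.30, and 5 of 18 pairs passed 0.1. Whether same-numbered arrays share more than a number was not settled.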
